A study of Homo sapiens with 6 samples.

Results

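The genes of cholesterol and fatty acid synthesis, with the regulators and transporters that surround them, were followed in MIA PaCa-2 cells, a long-established line from a human pancreatic carcinoma. The members are 36 named genes: 7 of the mevalonate arm, 11 of the squalene and sterol arm, 9 of fatty acid synthesis and desaturation, 5 of the SREBP system and 4 of sterol transport. All 36 had a row among the 18268 of the expression table. The rows of CYP51A1, TM7SF2, EBP and FADS2 each joined the symbols of other genes, so those values cannot be given to the named gene alone. Total RNA was sequenced from 3 libraries of cells with a knockout (KO) of LINC00901, a long non-coding RNA gene, and from 3 libraries of cells carrying a control vector, labelled LCV2. All were grown in DMEM with fetal bovine and horse serum, and both groups come from the same cell line. The labels do not say whether the libraries were separate cultures, clones or days, so p-values measure only the spread between these libraries, which may be technical. LINC00901 was in 0 rows, so the knockout itself was not checked here and each direction rests on the labels.

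Cells make cholesterol from acetyl-CoA through mevalonate, squalene and lanosterol, and make fatty acids from the same precursor through malonyl-CoA. Both routes are switched on by SREBP transcription factors, which are held in the endoplasmic reticulum by SCAP and INSIG proteins when sterols are plentiful and released to the Golgi and nucleus when they are scarce. INSIG1 is itself a SREBP target, which makes its transcript a commonly read gauge of the pathway. ABCA1, which exports cholesterol, is a target of the sterol-activated LXR receptors and is known to respond in the opposite sense.

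The promoters of 4 members are shown: SREBF2 and INSIG1 of the regulatory system, and SC5D and ABCA1, whose groups of libraries did not overlap. PMVK and FDPS, whose groups did not overlap either, have promoter entries that are not printed. Each promoter shown is the 250 bases upstream of the annotated start, 5′ to 3′, from RefSeq on GRCh38.p14. Capitals mark a sterol regulatory element core (TCACNCCAC), a CCAAT box (written ATTGG) or an E-box (CACGTG), searched on both strands.
SREBF2, chr22:41832855-41833104, plus strand: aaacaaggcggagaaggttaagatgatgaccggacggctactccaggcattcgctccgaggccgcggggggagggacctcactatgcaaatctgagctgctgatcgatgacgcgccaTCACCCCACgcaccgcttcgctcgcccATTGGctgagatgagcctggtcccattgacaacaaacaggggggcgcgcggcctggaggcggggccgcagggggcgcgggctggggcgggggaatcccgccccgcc
INSIG1, chr7:155297628-155297877, plus strand: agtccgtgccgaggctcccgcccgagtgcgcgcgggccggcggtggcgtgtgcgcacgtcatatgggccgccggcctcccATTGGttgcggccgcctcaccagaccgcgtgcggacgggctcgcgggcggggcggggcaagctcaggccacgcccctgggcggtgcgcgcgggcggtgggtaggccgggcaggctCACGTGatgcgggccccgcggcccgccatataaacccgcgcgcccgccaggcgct
SC5D, chr11:121292521-121292770, plus strand: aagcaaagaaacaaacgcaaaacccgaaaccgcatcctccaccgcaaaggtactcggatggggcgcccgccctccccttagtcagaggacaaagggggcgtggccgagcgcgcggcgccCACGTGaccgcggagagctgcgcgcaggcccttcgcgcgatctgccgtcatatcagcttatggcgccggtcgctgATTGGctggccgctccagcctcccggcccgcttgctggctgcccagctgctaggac
ABCA1, chr9:104928156-104928405, minus strand: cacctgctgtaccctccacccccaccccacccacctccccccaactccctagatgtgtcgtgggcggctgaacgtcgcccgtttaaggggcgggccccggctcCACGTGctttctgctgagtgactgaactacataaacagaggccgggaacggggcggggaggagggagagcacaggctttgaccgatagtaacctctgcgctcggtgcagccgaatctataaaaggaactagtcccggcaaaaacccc
The sterol element core was found only in SREBF2 among the 32 members with a promoter entry, where it begins 133 bases upstream of the start. It is in 0.861% of the 8480 promoters of tested genes and in 0.883% of all 35116 promoters. The CCAAT box, which binds NF-Y, a known partner of SREBP, was in 20 of the 32 members (62.5%), against 35.6% of tested genes. The GC box (GGGCGG), which binds SP1, another partner, was in 29 of the 32 (90.6%) against 69.1% of tested genes and is left in lower case. The E-box was in 5, INSIG1, SC5D, ABCA1, ELOVL5 and SCAP, or 15.6% against 9.3%. In the promoters printed, 1 CCAAT box lies 170 bases upstream of the start in INSIG1, 56 in SC5D and 106 in SREBF2. These are matches of letters in a window, not binding sites. ACAT2, FASN, FDFT1 and SQLE had no entry.

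Values are FPKM, fragments scaled to transcript length and library size, so levels can be compared between genes. FPKM summed to between 123107 and 134389 per library, and depth is unknown. The libraries also divided in a way that crosses the groups: histone genes made up 5.21% to 6.28% of the FPKM sum in vector control 1, KO 2 and KO 3, and 2.83% to 3.29% in vector control 2, vector control 3 and KO 1. The keratin gene KRT18 stood at 70.41 to 79.42 FPKM in the controls and 28.78 to 58.0 across the KO libraries, while the epithelial genes EPCAM and CDH1 were at most 0.14 and 0.02 FPKM in any library. The 5 epithelial marker rows of their own summed to 96.99 to 117.73 FPKM in the controls and 42.9 to 83.15 across the KO libraries. Nearly all of this came from KRT18 and KRT19. KRT19 overlapped between the groups, at 17.46, 34.09 and 39.34 FPKM in the controls and 25.11, 13.92 and 12.69 in KO 1, 2 and 3. Of the 7 fibroblast markers, the summed level was 69.02 to 99.04 FPKM in the controls and 68.17 to 96.9 across the KO libraries, nearly all from 2 collagen genes, with DCN at 0 in all 6 libraries. Those 2 went opposite ways without overlap: COL1A2 was at 31.6 ± 6.02 FPKM in the controls and 52.8 ± 2.97 with KO, and COL3A1 at 55.4 ± 10.7 and 25.5 ± 13.7 (SD, n = 3 per group; adjusted p = 0.119 and 0.164). Leukocyte markers with a row of their own summed to at most 0.68 FPKM in the controls and to 1.2 to 1.83 across the KO libraries, with PTPRC and CD3E at 0 throughout. The KO sum was all LYZ, the lysozyme gene, listed at 0 in the 3 controls and at 1.45, 1.83 and 1.2 FPKM in KO 1, 2 and 3, which was called higher (adjusted p = 0.00799) after passing the filter through the KO libraries. The monocyte gene CD14 was listed at 0, 0.4 and 0.68 FPKM in the controls and at 0 in every KO library. Endothelial, hepatocyte, adipocyte and acinar markers with a row of their own summed to at most 0.34, 0.03, 0.16 and 0.15 FPKM. In bulk RNA, fewer cells that express a gene and less RNA per cell cannot be told apart. The part of these differences in the results was not tested.

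Of the 36 members, 35 reached 1 FPKM in at least 3 libraries and were tested. The remaining one, STARD4, which encodes a cytosolic sterol carrier, was at most 0.04 FPKM. With limma over all 9624 tested genes, 0 of the 35 members were called higher and 0 lower at an adjusted p below 0.05, where 1.35% of all tested genes were called, 0.509% higher and 0.842% lower. The 130 genes called divided into 49 higher and 81 lower. A separate fit with quantile normalization also called 130 genes, not necessarily the same ones, 31 higher and 99 lower. At an unadjusted p below 0.05 there were 7 members, beside 17.5% of all tested genes. The log2 fold change was below 0 in 24 of the 35 members, with a median of -0.17. Over all tested genes, 40.7% were below 0 and the median was 0.08. In 5 members the 3 KO libraries did not overlap the 3 controls, 3 lower and 2 higher, where 23.8% of all tested genes did not overlap, 8.35% lower and 15.4% higher. The count of members lay below that background in total and in the higher direction, and near it in the lower direction.

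**Figure D1:**
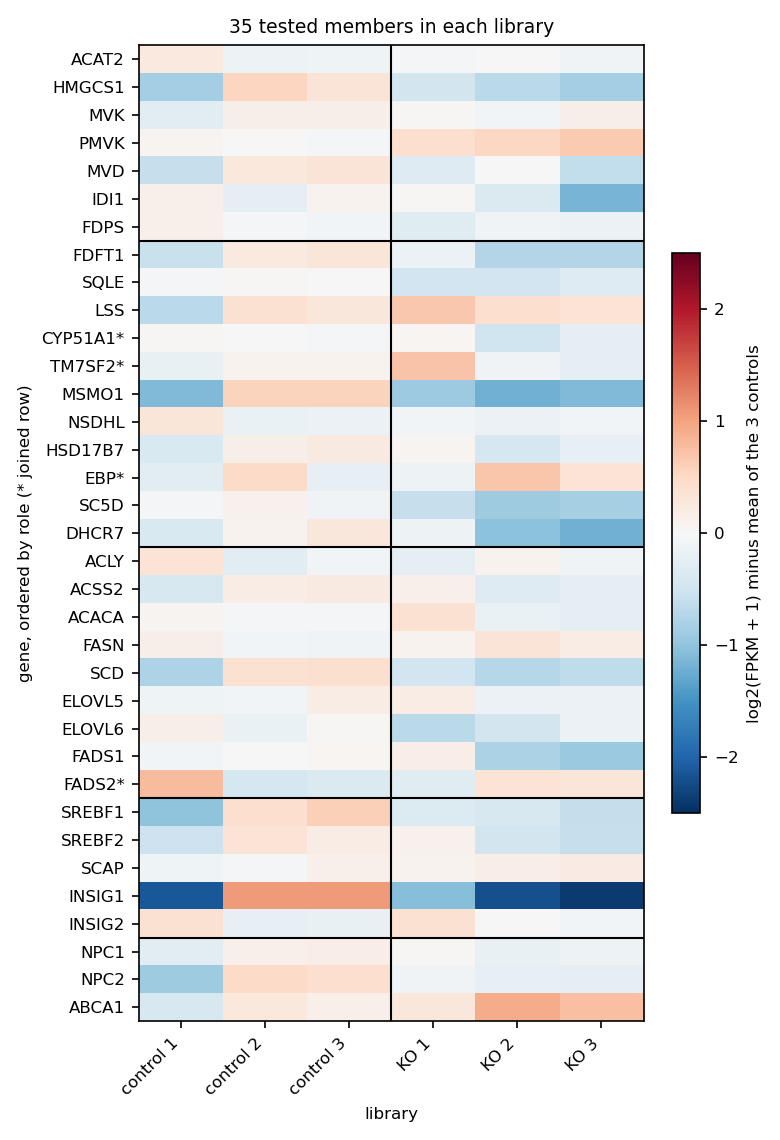
Heat map of the 35 tested members (rows, grouped by role between black lines: mevalonate arm, squalene and sterol arm, fatty acids, SREBP system, sterol transport) in the 6 libraries (columns). Colour is log2(FPKM + 1) minus the mean of the 3 vector controls. INSIG1, MSMO1, HMGCS1, SCD and SREBF1 are red in vector control 2 and 3 and blue in vector control 1 and the KO libraries.

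A pattern in part of the members was a separation of vector control 2 and 3 from the other 4 libraries. In 14 of the 35 members (40.0%) these 2 controls were the highest of all, against 14.8% of all tested genes. Vector control 1 was below both in 22 of the 35, against 38.6% of all tested genes. The 14 were HMGCS1, MVD, FDFT1, SQLE, MSMO1, HSD17B7, DHCR7, ACSS2, SCD, SREBF1, SREBF2, INSIG1, NPC1 and NPC2. In 13 of them vector control 1 did not exceed the highest KO library, and in 5 it lay below every KO library. The exception among the 14 was SQLE. KO 1, which shared the lower histone share of vector control 2 and 3, was the highest KO library in 12 of the 14. MVD and SQLE were the others. KO 1 lay close under these controls in some, as in ACSS2 (6.51 against 6.81 and 7.03 FPKM). It lay far below them in others, as in INSIG1 (5.84 against 29.07 and 28.85 FPKM). Relative to the control mean, the mean of the 35 members on the log2 scale was -0.26, 0.13 and 0.14 in vector control 1, 2 and 3. It was -0.08, -0.26 and -0.32 in KO 1, 2 and 3, so vector control 1 lay inside the range of the KO libraries. This pattern was noticed in these data and is given as a description.

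INSIG1, the sterol-sensing anchor that retains SCAP, varied most. It stood at 2.28, 29.07 and 28.85 FPKM in vector control 1, 2 and 3 and at 5.84, 2.14 and 1.73 in KO 1, 2 and 3. Vector control 2 and 3 were 12.8 and 12.7 times vector control 1, which fell within the KO range. The log2 fold change was -1.88 (SE 0.86, 95% interval -3.9 to 0.14, adjusted p = 0.312), so the difference did not pass the test and its interval includes 0. Without vector control 1 it was -2.95 (adjusted p = 0.016), and over the 16 alternatives run the adjusted p ran from 0.00171 to 0.657.

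SREBF1, which encodes the SREBP1 factors that favour fatty acid genes, stood at 2.93, 9.49 and 10.91 FPKM in the controls and at 5.22, 5.01 and 4.2 across the KO libraries. All 3 KO libraries lay between vector control 1 and the other two controls. The log2 fold change was -0.45 (SE 0.4, adjusted p = 0.612) and, without vector control 1, -0.95 (adjusted p = 0.0181). SREBF2, which encodes the SREBP2 factor that favours cholesterol genes and whose promoter above holds the sterol element core, stood at 4.69, 9.37 and 8.32 FPKM in the controls and at 7.86, 4.99 and 4.46 across the KO libraries. KO 1 was close to the upper controls, while KO 2 and 3 were close to vector control 1 (log2 fold change -0.31, SE 0.29, adjusted p = 0.62). It was -0.57 without vector control 1 (adjusted p = 0.151), -0.14 without vector control 2 and -0.07 with the histone division as a term.

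SCAP, the escort that carries SREBP to the Golgi, stood at 7.95, 8.4 and 9.47 FPKM in the controls and at 9.24, 9.72 and 9.98 across the KO libraries. The groups overlapped over a narrow range (log2 fold change 0.15, 95% interval -0.18 to 0.48, adjusted p = 0.623). INSIG2, the second anchor protein, did not share the pattern of INSIG1: it stood at 3.03, 1.68 and 1.72 FPKM in the controls and at 3.03, 2.06 and 1.95 across the KO libraries. Its highest values were in vector control 1 and KO 1 (log2 fold change 0.1, SE 0.22, adjusted p = 0.846).

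**Figure D2:**
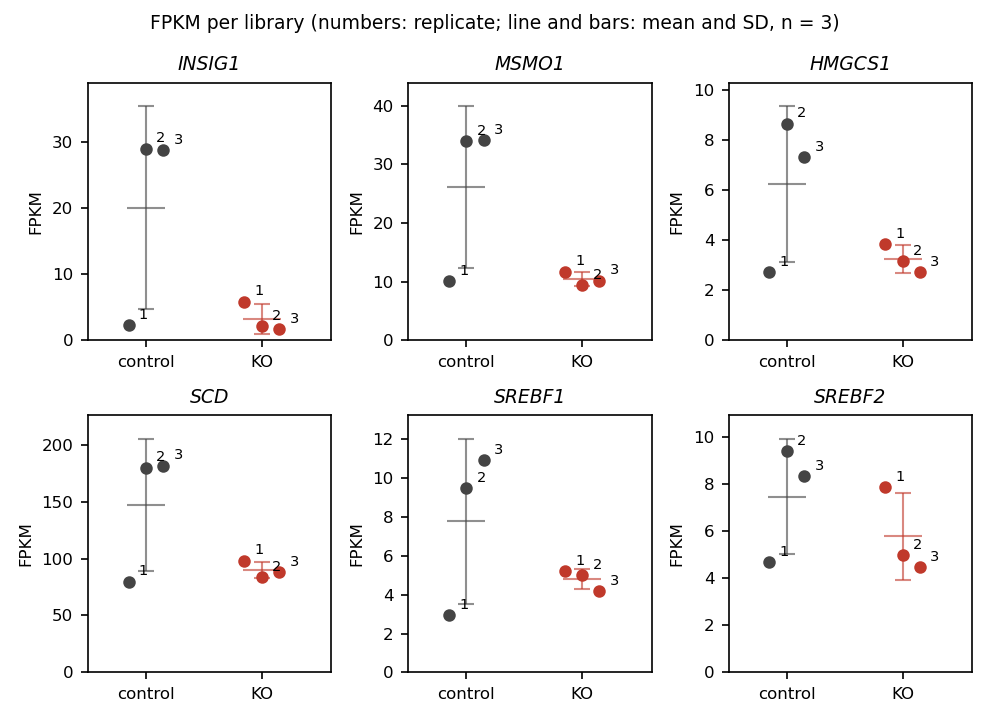
FPKM (linear axes from 0) of 6 members in each library, vector control in grey and KO in red, with the replicate number beside each point and the mean and SD of 3 libraries as line and bars. Vector control 2 and 3 lie at the top of each panel, INSIG1 at 29.07 and 28.85 FPKM, and vector control 1 lies near or below the KO libraries, except that KO 1 of SREBF2, at 7.86, lies close under the upper controls.

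In the mevalonate arm, HMGCS1, the synthase that makes HMG-CoA, stood at 2.72, 8.65 and 7.31 FPKM in the controls and 3.84, 3.17 and 2.71 across the KO libraries. Vector control 1 and KO 3 were nearly equal (log2 fold change -0.66, SE 0.35, adjusted p = 0.377; without vector control 1, -1.09, adjusted p = 0.0182). MVD, the decarboxylase that forms isopentenyl diphosphate, also had vector control 2 and 3 highest, with group values of 4.14 ± 1.6 FPKM in the controls and 3.05 ± 0.882 across the KO libraries (SD, n = 3 per group; log2 fold change -0.31).

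PMVK, the phosphomevalonate kinase, went the other way. It stood at 10.26, 9.65 and 9.46 FPKM in the controls and at 13.42, 14.36 and 15.96 across the KO libraries. Every KO library was above every control, and neither group was divided (log2 fold change 0.53, SE 0.14, 95% interval 0.2 to 0.86, adjusted p = 0.146). It was called without vector control 1 (0.56, adjusted p = 0.0405). MVK, the kinase of the step before it, was at 1.32 ± 0.375 and 1.37 ± 0.165 FPKM in controls and KO (log2 fold change 0.04, 95% interval -0.35 to 0.43).

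The isomerase gene IDI1 stood at 4.97 to 6.63 FPKM in the controls and at 6.1, 4.4 and 2.12 in KO 1, 2 and 3, with KO 3 the lowest of all 6 (log2 fold change -0.5, adjusted p = 0.438; -0.17 without KO 3). FDPS, the farnesyl diphosphate synthase, was 10.34 to 11.85 FPKM in the controls and 8.54 to 10.2 across the KO libraries. The groups did not overlap, but the log2 fold change was only -0.18 (SE 0.15, adjusted p = 0.578). ACAT2, the cytosolic thiolase that starts the arm, was at 13.2 ± 2.09 and 12.6 ± 0.381 FPKM (log2 fold change -0.05, 95% interval -0.42 to 0.32).

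In the squalene and sterol arm, MSMO1, the C4-methylsterol oxidase, stood at 10.09, 34.02 and 34.07 FPKM in the controls and at 11.7, 9.45 and 10.15 across the KO libraries. Vector control 1 was within the KO range and the other controls were over 3 times as high. The log2 fold change was -1.07 (SE 0.44, adjusted p = 0.267), and -1.62 without vector control 1 (adjusted p = 0.00459). FDFT1, the squalene synthase, stood at 16.18, 29.11 and 30.45 FPKM in the controls and at 22.0, 14.27 and 14.26 across the KO libraries, with KO 1 between vector control 1 and the other controls (log2 fold change -0.53, adjusted p = 0.378). DHCR7, the reductase of the last step, stood at 7.27, 10.43 and 12.17 FPKM and at 8.91, 4.3 and 3.67, so KO 2 and 3 were below all controls and KO 1 was among them (log2 fold change -0.78, SE 0.32, adjusted p = 0.267).

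SC5D and SQLE were lower in every KO library than in every control. SC5D, the lathosterol 5-desaturase, stood at 1.47, 1.7 and 1.38 FPKM in the controls and at 0.68, 0.35 and 0.42 across the KO libraries. It had the lowest adjusted p of the members (log2 fold change -0.77, SE 0.14, 95% interval -1.1 to -0.44, adjusted p = 0.0544) and did not pass. SC5D is a low gene that reached 1 FPKM only in the controls, so it passed the filter through the group where it was high. It was called in 6 of the 15 alternatives that tested it, among them without vector control 1 (-0.78, adjusted p = 0.0289), and its log2 fold change reached -1.51 with a pseudocount of 0.1. SQLE, the squalene epoxidase and a rate-controlling step, stood at 7.82, 8.34 and 8.16 FPKM in the controls and at 5.53, 5.51 and 6.26 across the KO libraries (log2 fold change -0.43, SE 0.14, 95% interval -0.76 to -0.1, adjusted p = 0.201). Neither gene was divided within the controls.

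**Figure D3:**
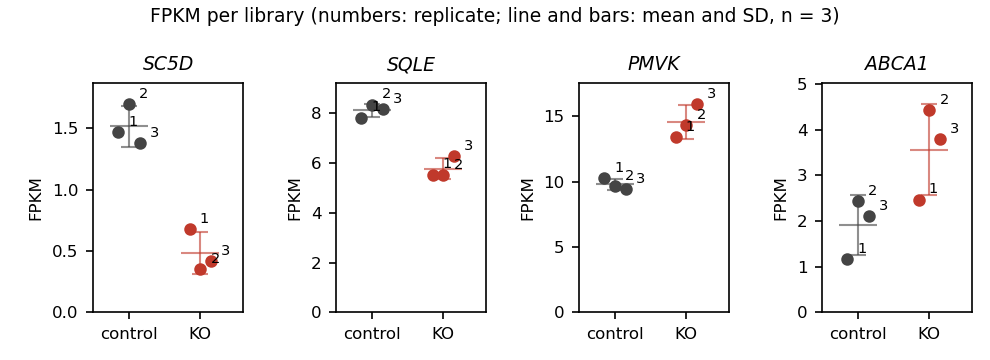
FPKM (linear axes from 0) of the 4 members whose groups did not overlap at an absolute log2 fold change above 0.4 (FDPS, the fifth without overlap, is not drawn), vector control in grey and KO in red, with replicate numbers and the mean and SD of 3 libraries. SC5D and SQLE lie lower in every KO library (SC5D at 0.35 to 0.68 FPKM) and PMVK and ABCA1 higher, with 2.47 in KO 1 against 2.43 in vector control 2 for ABCA1.

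The other genes of this arm had no common direction. LSS, the lanosterol synthase, stood at 3.4, 8.11 and 7.5 FPKM in the controls and at 10.08, 8.29 and 7.8 across the KO libraries, so only vector control 1 stood apart (log2 fold change 0.47, adjusted p = 0.445; 0.14 without vector control 1). NSDHL, a sterol dehydrogenase, was at 7.91 ± 1.73 and 7.21 ± 0.251 FPKM (log2 fold change -0.1), and HSD17B7, the 3-ketosterol reductase, at 2.17 ± 0.669 and 1.76 ± 0.474 (-0.19; SD, n = 3 per group). Of the joined rows, KRIT1;CYP51A1;LRRD1;AC000120, which holds the lanosterol demethylase, had a log2 fold change of -0.23. EBP;TBC1D25;AF196969, with the sterol isomerase, had 0.3, and VPS51;TM7SF2, with a sterol reductase, 0.13. Their adjusted p were 0.536, 0.618 and 0.834.

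**Figure D4:**
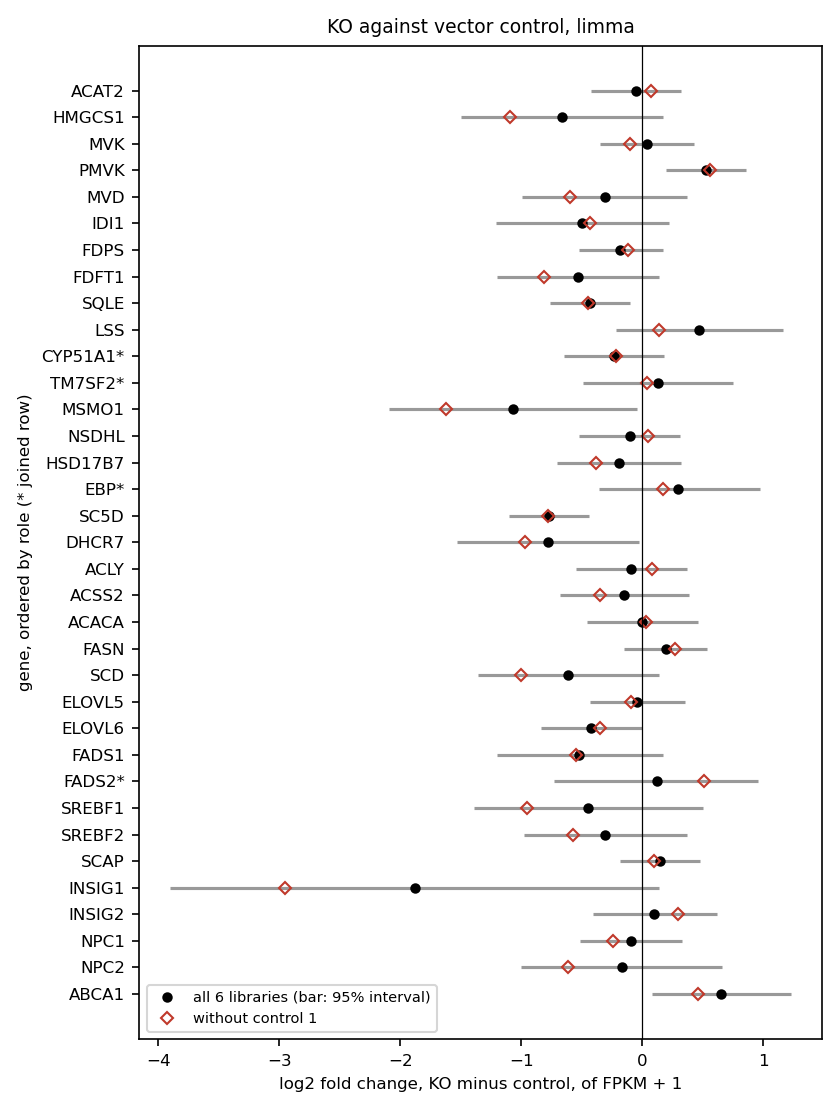
Log2 fold change of each tested member, KO minus vector control on the log2(FPKM + 1) scale, from limma (black points, bars the 95% interval) and the same without vector control 1 (open red diamonds). Leaving out vector control 1 moves INSIG1 from -1.88 to -2.95 and MSMO1 from -1.07 to -1.62, while SC5D stays near -0.77.

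Among the fatty acid genes, SCD, the stearoyl-CoA desaturase, was the most abundant member. It stood at 79.76, 179.69 and 181.57 FPKM in the controls and at 98.06, 83.61 and 88.01 across the KO libraries, so vector control 1 was the lowest of all 6. The log2 fold change was -0.61 (SE 0.32, adjusted p = 0.367), and -1.0 without vector control 1 (adjusted p = 0.0122). ACSS2, which makes acetyl-CoA from acetate, had vector control 2 and 3 highest with a log2 fold change of -0.15.

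The core synthesis enzymes did not have vector control 2 and 3 highest. ACLY, which makes cytosolic acetyl-CoA from citrate, was at 60.9 ± 13.5 FPKM in the controls and 56.6 ± 6.72 across the KO libraries (log2 fold change -0.09, 95% interval -0.55 to 0.37). ACACA, the acetyl-CoA carboxylase, was at 13.7 ± 0.545 and 14.0 ± 3.69 FPKM, with a 95% interval of -0.46 to 0.46 around 0.000748. FASN, the fatty acid synthase, was at 15.3 ± 1.5 and 17.6 ± 1.53 FPKM (SD, n = 3 per group; log2 fold change 0.2, 95% interval -0.15 to 0.54).

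The elongases and desaturases differed among themselves. ELOVL5 was at 40.2 ± 4.77 and 39.1 ± 5.37 FPKM in controls and KO (log2 fold change -0.04). ELOVL6, which elongates palmitate, stood at 1.91, 1.35 and 1.68 FPKM in the controls and at 0.65, 0.93 and 1.39 across the KO libraries, where only KO 3 overlapped the controls (log2 fold change -0.42, SE 0.18, adjusted p = 0.284). FADS1, the delta-5 desaturase, was at 4.74 to 5.21 FPKM in the controls and at 5.74, 2.48 and 2.13 in KO 1, 2 and 3, so KO 1 stood apart from the other KO libraries (-0.52, adjusted p = 0.401; -0.86 without KO 1 and -0.31 without KO 3). The joined row FADS2;FEN1, which also counts the flap endonuclease of DNA replication, was highest in vector control 1 at 8.03 FPKM, next in KO 2 and 3 at 5.59 and 5.41, and 2.86 to 3.24 in the rest. That order is the division seen in the histone share.

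Among the transporters, ABCA1 stood at 1.17, 2.43 and 2.11 FPKM in the controls and at 2.47, 4.43 and 3.79 across the KO libraries. The groups did not overlap, by a margin of 0.04 FPKM between KO 1 and vector control 2 (log2 fold change 0.65, SE 0.24, 95% interval 0.08 to 1.23, adjusted p = 0.239; without vector control 1, 0.46, adjusted p = 0.201). NPC2, the lysosomal sterol-binding protein, stood at 13.26, 35.4 and 33.95 FPKM in the controls and at 23.88, 21.86 and 21.32 across the KO libraries, which lay together between the divided controls. Its log2 fold change was -0.17 (adjusted p = 0.839), and -0.61 without vector control 1 (adjusted p = 0.0278). NPC1, the membrane protein that receives cholesterol from NPC2, also had vector control 2 and 3 highest and vector control 1 lowest, over a smaller range, at 5.94 to 8.57 and 6.48 to 7.69 FPKM (-0.09).

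Without vector control 1, 7 of the 35 members were called lower and 1 higher, beside 5.07% and 8.74% of all tested genes. Those lower were INSIG1, MSMO1, HMGCS1, SCD, SREBF1, NPC2 and SC5D, and PMVK was the one higher. Among the 14 members with vector control 2 and 3 highest, several were not called there. These included FDFT1 at -0.81, MVD at -0.6, SREBF2 at -0.57, HSD17B7 at -0.38, ACSS2 at -0.35 and NPC1 at -0.24. Each of these log2 fold changes was over 1.5 times its value with all libraries. DHCR7 moved only from -0.78 to -0.97 and SQLE from -0.43 to -0.45. Vector control 1 was the lowest control in all 14, so leaving it out had to lower these values. The sign changed for ACLY (0.08), ACAT2 (0.07), NSDHL (0.05) and MVK (-0.1), and LSS fell to 0.14. Leaving out vector control 2 or 3 instead moved SREBF1 to -0.24 and -0.15. With 3 KO libraries against 2 controls, that fit has 1 library fewer, and 13.8% of all tested genes were called in it. With any of the other 5 libraries left out, 0 members were called, beside 0.405% of all tested genes without vector control 2 or 3 and 1.26%, 0.301% and 0.26% without KO 1, 2 and 3. Groups of libraries did not overlap in 22 members without vector control 1, beside 52.8% of all tested genes, in 9 and 6 without vector control 2 and 3 (28.4% and 27.6%), and in 15, 5 and 7 without KO 1, 2 and 3 (39.9%, 29.6% and 29.1%). Robust limma with array weights called 19 members, beside 41.8% of all tested genes. SC5D was the 1 member called with no filter (1.67% of all tested genes), median scaling (1.45%), quantile normalization (1.35%) or an adjusted p below 0.1 (2.85%). No member was called with a filter at 5 FPKM (1.14%), where 3 of 26 members did not overlap (21.0%), or with the replicate number as a block (0.0727%).

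Differences were also taken within the division of the libraries by histone share, as KO 1 minus the mean of vector control 2 and 3, and as the mean of KO 2 and 3 minus vector control 1. INSIG1 differed by -2.13 in the first and -0.16 in the second on the log2 scale. MSMO1 differed by -1.46 and -0.04, HMGCS1 by -0.89 and 0.08, SCD by -0.87 and 0.1, and SREBF1 by -0.85 and 0.51. For these 5 the difference was near or above 0 in the second comparison. Vector control 2 and 3 were the highest libraries in all 5, which fixed the first comparison below 0 beforehand. The 5 were put together after their values were seen, so the contrast is a description. SC5D differed by -0.59 and -0.84, SQLE by -0.5 and -0.36, PMVK by 0.45 and 0.52, and ABCA1 by 0.09 and 1.23. The groups of libraries of these genes did not overlap, which fixed the same sign in both comparisons beforehand. In all, 9 of the 35 members were below 0 in both comparisons and 6 above 0 in both, beside 22.5% and 34.9% of all tested genes. Each comparison has 1 library on one side and no test. With the division as a term in limma, INSIG1 had a log2 fold change of -1.15 (adjusted p = 0.177), and SC5D alone of the 35 members was called (-0.71, adjusted p = 0.0478), where 2.49% of all tested genes were.

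**Figure D5:**
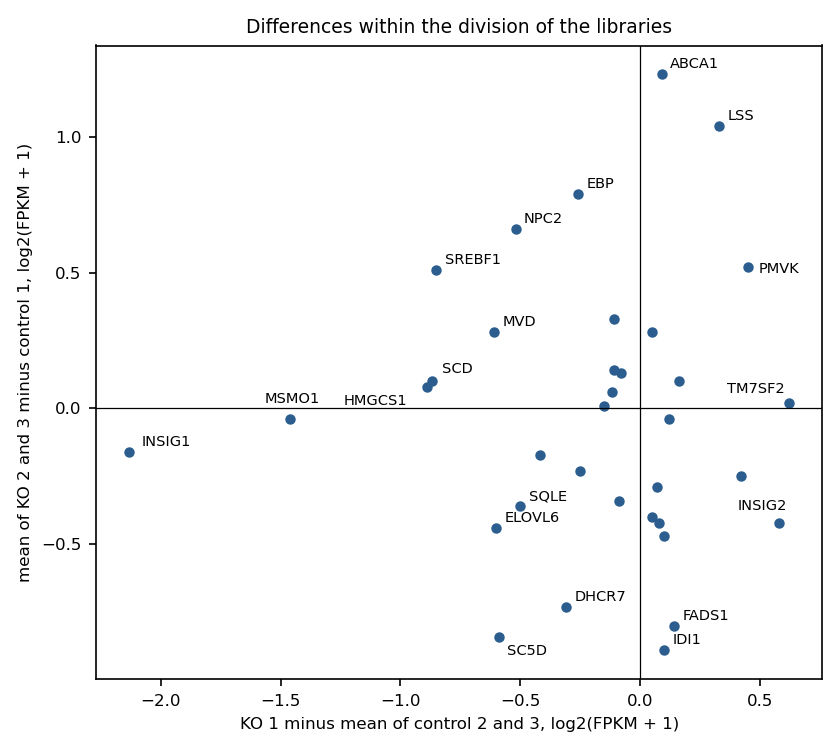
Difference of each tested member on the log2(FPKM + 1) scale, KO 1 minus the mean of vector control 2 and 3 (x axis) and the mean of KO 2 and 3 minus vector control 1 (y axis). Each point is 1 gene, and those at least 0.5 from 0 on either axis carry a name. INSIG1 (-2.13, -0.16) and MSMO1 lie far left near the horizontal zero line, while SC5D (-0.59, -0.84) and PMVK lie off both zero lines.

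Further lists of lipid genes, of 9 to 25 tested genes each, gave 0 calls each with limma, where 1.35% of all tested genes were called, so these counts are at the background. Their counts at an unadjusted p below 0.05 stand beside 17.5% of all tested genes. Of 9 other sterol and isoprenoid genes, 1 had an unadjusted p below 0.05 and the median log2 fold change was -0.1. FAXDC2, a member of the sterol oxidase family, was at 1.1 ± 0.333 FPKM in the controls and 2.31 ± 0.661 across the KO libraries (SD, n = 3 per group; 0.65, adjusted p = 0.187). NUS1, a subunit of the dolichol synthase, was at 24.0 ± 5.12 and 18.8 ± 0.502 FPKM (-0.32, adjusted p = 0.391). Of 14 tested genes of fatty acid chain making, 1 had an unadjusted p below 0.05, with a median of 0.05. ACACB, the mitochondrial acetyl-CoA carboxylase, was at 0.52 ± 0.07 and 1.06 ± 0.104 FPKM (0.44, adjusted p = 0.15), having passed the filter through the KO libraries. SCD5, the second desaturase, was at 6.55 ± 0.943 and 8.07 ± 0.0361 FPKM and did not share the order of SCD (0.27, adjusted p = 0.404).

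Of 20 tested genes of triglyceride and phospholipid synthesis, 2 had an unadjusted p below 0.05, with a median of 0.04. The joined row ACSL4;KCNE5, with an acyl-CoA synthetase that activates polyunsaturated fatty acids, was at 16.2 ± 0.774 FPKM in the controls and 9.68 ± 0.539 across the KO libraries (-0.69, adjusted p = 0.0666). LPCAT1, a lysophospholipid acyltransferase, was at 9.61 ± 1.01 and 5.81 ± 2.48 FPKM (-0.72, adjusted p = 0.279). Of 13 tested genes of SREBP processing and sterol-regulated turnover, 1 had an unadjusted p below 0.05, with a median of 0.01. SEC23A, a coat protein of the vesicles that carry SCAP and SREBP, was at 33.1 ± 3.0 and 22.2 ± 2.36 FPKM (-0.55, adjusted p = 0.15), and the site-1 protease gene MBTPS1 at 12.2 ± 0.766 and 14.4 ± 1.44 (0.22, adjusted p = 0.475).

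Of 21 tested genes of cholesterol uptake, export, esterification and LXR, 7 had an unadjusted p below 0.05, against 17.5% of all tested genes, with a median of -0.07. GRAMD1B, which moves cholesterol from the plasma membrane to the endoplasmic reticulum, stood at 17.43, 15.01 and 15.75 FPKM in the controls and at 2.94, 8.32 and 9.05 across the KO libraries. Every KO library was below all controls, with KO 1 the lowest (-1.25, SE 0.35, adjusted p = 0.157). Of 25 tested genes of fatty acid oxidation, 19 had a log2 fold change above 0, where 59.3% of all tested genes did, and 5 an unadjusted p below 0.05, with a median of 0.09 against 0.08 over all tested genes. ETFDH, which passes electrons from fatty acid oxidation to ubiquinone, was at 2.58 ± 0.201 and 4.89 ± 0.644 FPKM (0.71, SE 0.15, adjusted p = 0.0905), and the peroxisomal EHHADH at 3.5 ± 1.56 and 6.13 ± 1.12 (0.72, adjusted p = 0.274).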

How the data were processed

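The authors deposited 1 table of FPKM with a column per library, per the file headers. The tools named are cutadapt, FastQC and HISAT2, and the build hg19, per the submitters' processing notes. The sources used here do not give versions, the tool behind FPKM, the annotation or strand use, so reads of a gene and an antisense partner cannot be told apart. Libraries were grouped by title, 3 per group.

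From the FPKM, limma 3.58.1 in R 4.3.3 (eBayes after lmFit, trend on) was run on log2(FPKM + 1) for 9624 rows with at least 1 FPKM in at least 3 libraries. A fold change on this scale understates that of low genes. P-values were two-sided and Benjamini-Hochberg adjusted over all tested rows, with calls below 0.05. Joined rows were kept as 1 unit. The fit was tested on simulated data.

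Members and lists were chosen with earlier results of these data known. Every member is named, with each library's value for members that separate the groups at an absolute log2 fold change of 0.5 or more and for SREBF1, SREBF2, SCAP, INSIG1 and INSIG2. Values by library for other members, and the names of SQLE, MSMO1, HMGCS1 and SCD in figures, were chosen after their values were seen. From each further list, up to 2 genes that separate the groups are named. Promoters are RefSeq's on GRCh38.p14, and no coordinates of the authors' build are used.

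Alternatives were other pseudocounts, filters, scalings, variance models and thresholds, the replicate number as a block, the histone division as a term, and each library left out in turn.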

Additional observations from a re-analysis of the deposited data

How the results depend on the processing

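With 3 libraries per group and unknown depth, the spread between libraries limits what can be seen. Of the 551 values of single members under an alternative, 484 kept their direction and their side of the threshold, 31 passed the threshold only there (19 genes) and 36 changed sign (12 genes, none called where the sign differed). The number of members called, 0 of 35, became 1 with no filter, with median scaling, with quantile normalization, with the histone division as a term, and at an adjusted p below 0.1, that 1 being SC5D each time. It became 19 (15 lower, 4 higher) with robust limma and array weights, where 41.8% of all tested genes were called. With single libraries left out it ran from 0 to 8, the 8 without vector control 1. The median log2 fold change of the members stayed between -0.26 and -0.11 under every alternative. The 5 members that did not overlap became 3 of 26 with a filter at 5 FPKM, and 5 to 22 with a library left out, the highest without vector control 1, where 52.8% of all tested genes did not overlap, and 15 without KO 1 (39.9%).

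Over all tested genes, 130 were called, 241 with no filter, 59 with a filter at 5 FPKM, 240 with the division as a term, 4020 with array weights (2596 higher, 1424 lower) and 274 at an adjusted p below 0.1. With single libraries left out the number ran from 25 without KO 3 to 1329 without vector control 1 (841 higher, 488 lower), with 39 without vector control 2 or 3, 121 without KO 1 and 29 without KO 2. With the replicate block 7 genes and 0 members were called. The correlation of deviations between same-numbered libraries was -0.374, -0.153 and -0.264. Deviations from a mean of 3 libraries are tied to each other, so these values cannot show whether same-numbered libraries were handled together.

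Sign changes were small. ACACA had -0.000882 and -0.000108 with pseudocounts of 0.1 and 0.5, -0.09 with median scaling and -0.12 with array weights. MVK had -0.02 with median scaling, -0.13 with quantile normalization and -0.08 with array weights. With quantile normalization ACLY had 0.01, ELOVL5 0.08 and INSIG2 -0.03. With array weights ACAT2 had 0.05, ACLY 0.13, NSDHL 0.04 and TM7SF2 -0.18. With the division as a term ACSS2 had 0.02, ELOVL5 0.04, FADS2 -0.19, NPC1 0.01 and NPC2 0.07. With a library left out, ACACA ran from -0.19 to 0.11, ACAT2 from -0.12 to 0.07, ACLY from -0.22 to 0.08, ELOVL5 from -0.15 to 0.05, FADS2 from -0.1 to 0.51, INSIG2 from -0.04 to 0.3, MVK from -0.1 to 0.11, NPC2 from -0.61 to 0.06, NSDHL from -0.18 to 0.05 and TM7SF2 from -0.16 to 0.31. The cause was not tested.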
